A study of Rattus norvegicus with 72 samples.

Results

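The genes described here encode 9 secreted proteins of basement membranes: the laminin chains Lama1, Lama5, Lamb1, Lamb2 and Lamc1, the nidogens Nid1 and Nid2, the proteoglycan perlecan (Hspg2) and the proteoglycan agrin (Agrn). They were chosen by name, and 9 of the 32545 genes in both count tables are these. For 8 of them the symbol was in the tables, and Hspg2 was found by its gene description. All 9 passed the filter on low counts in every comparison.

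RNA sequencing was done on 72 libraries from adult male Sprague-Dawley rats whose right kidney had been removed (nephrectomy) or that had had a sham operation, in which the pedicle of the right kidney was freed and the kidney stayed in place. The left kidney was studied 24, 48 or 72 h later, as glomeruli, as S1 segments, where the proximal tubule begins, dissected by hand, or as whole kidney, with 4 libraries for each tissue, operation and time. The small amounts of glomerular and S1 RNA were amplified (NuGEN Ovation RNA-seq V2) before single-end sequencing, while whole kidney RNA was made into strand-specific TruSeq libraries read from both ends. All groups were operated on under general anaesthesia and fed ordinary chow, the labels name no transgene, and nothing in them ties each library to its own rat. The p-values therefore measure how far libraries spread, which may be partly technical.

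Basement membranes are thin sheets of extracellular matrix under epithelia and around capillaries and muscle cells. Each laminin is a trimer of an alpha, a beta and a gamma chain that assembles into a network on the cell surface. Nidogens bind the gamma chain and join this network to that of type IV collagen, and perlecan and agrin add charged heparan sulfate chains. The glomerular basement membrane, part of the filtration barrier, is known in mature kidneys for laminin made of the Lama5, Lamb2 and Lamc1 chains, with agrin as its main heparan sulfate proteoglycan. In mouse and human kidneys the chain encoded by Lama1 is known from tubular basement membranes, and loss of LAMB2 in people causes congenital nephrotic syndrome.

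The sham 24 h pair numbered 2 went against its labels. The library labelled glomeruli had a summed deposited level of 24.1 RPKM over 8 podocyte markers, against 2610 to 5450 RPKM in the other glomerular libraries, and its partner labelled S1 had 2650 RPKM. The basement membrane genes differed likewise, with 2.22 RPKM of Lamb2 and 15.2 RPKM of Lamb1 in the library labelled glomeruli, and 47.7 RPKM of Lamb2 and 5.73 RPKM of Lamb1 in that labelled S1. Both libraries were left out, which leaves 3 sham libraries at 24 h in each segment. Total gene counts of the libraries used ranged from 2643258 to 37408599 in glomeruli (23 libraries), from 7883861 to 87368807 in S1 (23) and from 10102869 to 55517383 in whole kidney (24). A further 4 libraries stood apart and were kept. Nephrectomy 72 h number 3 of glomeruli had the fewest gene counts, with 2.9% of its uniquely placed reads in genes, and was the lowest of 23 for 6 of the 9 genes. Nephrectomy 72 h number 2 of S1 had 7883861 gene counts, with 8.0% of its uniquely placed reads in genes. Mitochondrial genes held 18.5% of its gene counts, the highest share in S1. This library was the lowest of 23 S1 libraries for 6 of the 9 genes. Sham 24 h number 1 of whole kidney, with 72.2% of its reads not uniquely placed, was the lowest of 24 for 8 of the 9. Nephrectomy 24 h number 3 of whole kidney, with 93.9% of its reads not uniquely placed, was the highest of 24 for 4 of the 9.

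The tissue labels otherwise matched their markers. Between sham glomeruli and sham S1, 8 of 8 podocyte, 7 of 7 endothelial and 7 of 7 mesangial markers were higher in glomeruli, and 8 of 8 proximal tubule markers were lower. No defining marker was at 0 in all libraries of its tissue. Levels below are the authors' RPKM (segments) or FPKM (whole kidney), which count reads per length of gene, divided by a TMM factor that sets the libraries to a common scale. The segment and whole kidney tables were scaled apart, so levels are not set against each other across them. Markers of other segments were present too. Summed loop of Henle and distal markers ran from 71.1 to 165 RPKM in sham glomeruli at 48 h and from 2.49 to 7.31 RPKM at 72 h. Summed collecting duct markers reached 122 RPKM in S1 after nephrectomy. The lowest S1 nephrectomy library at 72 h had 945 RPKM over 8 proximal tubule markers, against a median of 4240 RPKM in that group.

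In sham glomeruli the most abundant of these messages were Lamc1, Nid1, Lamb2 and Nid2, while in sham S1 they were Lamb1, Lamc1 and Nid2. All 9 genes differed between the sham segments. Lama5, Lamb2, Lamc1, both nidogens, Hspg2 and Agrn were higher in glomeruli, by 2.31-fold for Lama5 up to 12.4-fold for Nid1, and Lama1 and Lamb1 were lower in glomeruli, at 0.0817 and 0.122 of their S1 levels. Of all 22313 genes tested 50.3% also passed, with 28.1% higher and 22.2% lower in glomeruli, so 9 of 9 is read against a frequent event. The sham groups kept apart in every library for 8 of the 9 genes, against 17.6% of all genes. The levels of the 9 were scaled with all segment libraries, and that share with the sham segment libraries alone.

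Among the alpha chains, Lama1 had a lowest, median and highest level of 0.136, 0.4 and 0.737 RPKM in 11 sham glomerular libraries, against 3.64, 5.38 and 7.93 RPKM in 11 sham S1 libraries. Lama5, the alpha chain of the mature glomerular basement membrane, had 7.85, 12.3 and 21.4 RPKM in sham glomeruli, against 4.26, 5.77 and 7.14 RPKM in sham S1. For Lama1 every glomerular library was below every S1 library, and for Lama5 every glomerular library was above. The log2 fold change of glomeruli over S1 was -3.61 ± 0.22 (SE, adjusted p = 6.85e-15) for Lama1 and 1.21 ± 0.16 (adjusted p = 2.64e-07) for Lama5, by edgeR's quasi-likelihood test with Benjamini-Hochberg adjustment over all genes tested.

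The beta chains were opposite in the segments. Lamb2, the beta chain of the mature glomerular barrier, had a lowest, median and highest level of 37.1, 54.6 and 111 RPKM in sham glomeruli, against 3.64, 4.49 and 7.18 RPKM in sham S1. Lamb1 had 1.24, 1.98 and 5.94 RPKM in sham glomeruli, against 14.0, 21.5 and 28.4 RPKM in sham S1. Neither pair of groups overlapped. The log2 fold changes were 3.56 ± 0.21 (adjusted p = 1.92e-15) for Lamb2 and -3.04 ± 0.22 (adjusted p = 5.76e-13) for Lamb1. Lamc1, the gamma chain common to most laminins, had 55.2, 81.7 and 142 RPKM in sham glomeruli, against 9.78, 16.8 and 20.5 RPKM in sham S1, again with no overlap and with a log2 fold change of 2.51 ± 0.19 (adjusted p = 5.94e-13).

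The linker Nid1 had a lowest, median and highest level of 41.1, 60.8 and 127 RPKM in sham glomeruli, against 1.15, 3.65 and 15.4 RPKM in sham S1. Nid2, its paralog, had 27.7, 51.9 and 91.6 RPKM in sham glomeruli, against 5.49, 13.0 and 19.3 RPKM in sham S1. The groups were separate for both genes, and sham 48 h number 1 was the highest S1 library for Nid1. Log2 fold changes were 3.63 ± 0.36 (adjusted p = 3.83e-10) for Nid1 and 2.15 ± 0.19 (adjusted p = 5.48e-11) for Nid2.

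Of the proteoglycans, Agrn had a lowest, median and highest level of 19.1, 24.5 and 45.5 RPKM in sham glomeruli, against 2.54, 3.67 and 4.47 RPKM in sham S1. Hspg2 had 1.36, 4.71 and 12.6 RPKM in sham glomeruli, against 0.459, 1.45 and 2.59 RPKM in sham S1. The groups were separate for Agrn and overlapped for Hspg2. Log2 fold changes were 3.00 ± 0.16 (adjusted p = 5.78e-16) for Agrn and 1.85 ± 0.28 (adjusted p = 1.64e-06) for Hspg2.

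These differences depend in size on the scaling between segments. With TMM factors the median log2 fold change of all genes was 0.62, with 6263 genes called higher and 4962 lower in glomeruli, and with DESeq2 the split was 9418 higher and 4341 lower. On the deposited RPKM scale with no further factor, the log2 ratios of mean levels were -1.78 for Lama1 and -1.28 for Lamb1, whose sham ranges then overlapped, and 2.89 for Lama5, 5.28 for Lamb2 and 5.43 for Nid1. The direction was the same for all 9 genes under every scaling run. The segments also differed in the share of uniquely placed reads that fell in genes. Its median was 26.95% over the 24 libraries labelled glomeruli and 62.9% over the 24 labelled S1. The part of this in the differences was not tested. In bulk RNA, fewer cells of a type and less RNA per cell cannot be told apart, and the segments differ in cell types by dissection.

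**Figure D1:**
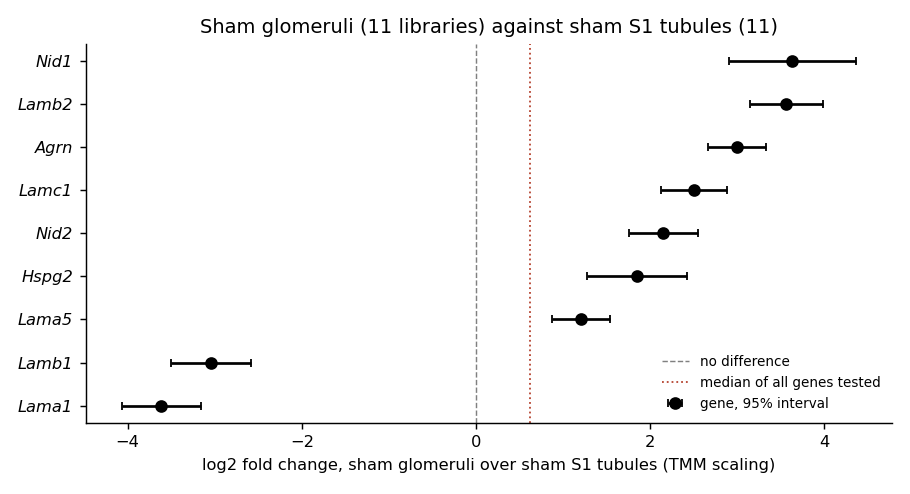
Log2 fold change of sham glomeruli over sham S1 (x axis, TMM scaling) for each of the 9 genes (points) with its 95% interval (lines), beside 0 (dashed) and the median of all genes tested at 0.62 (dotted). Lama1 and Lamb1 lie at -3.61 and -3.04, and the other 7 lie between 1.21 (Lama5) and 3.63 (Nid1), above the dotted line.

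The share of each chain within its family needs no scaling between libraries, since all chains are read from the same library. Lamb2 made up 95.0% ± 2.17 (SD, n = 11) of the length-scaled beta chain messages in sham glomeruli and 18.8% ± 4.51 (n = 11) in sham S1, with library ranges of 92.5 to 97.6% and 13.0 to 30.7%. Lamb1 made up 4.39% in sham glomeruli and 80.6% ± 4.58 in sham S1. Thus one beta chain message was in large excess in each segment, and it was not the same one.

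Among the alpha chain messages (Lama1, Lama2, Lama4 and Lama5) of sham glomeruli, Lama4 (an alpha chain of vascular basement membranes) made up 53.9% ± 5.6 and Lama5 40.2% ± 4.72, while Lama1 made up 1.48% (n = 11). The symbol Lama3 was not found in the count tables, so that chain is not in these shares. In sham S1, Lama5 made up 46.8% ± 8.97 and Lama1 40.5% ± 7.12 (n = 11), with 7.48% from Lama4. Lamc1 made up 98.9% of gamma chain messages in sham glomeruli and 97.8% in sham S1. In sham whole kidney it was 63.1% ± 5.78, with 30.8% ± 7.44 from Lamc3 (n = 12), a gamma chain whose level there was 8.24 ± 2.23 FPKM. Lamc3 had 0.22 RPKM in sham glomeruli and 0.124 RPKM in sham S1. Segment and whole kidney libraries were made by different protocols, so protocol and tissue cannot be told apart in these gamma chain values. Nid1 made up 56.2% ± 6.43 of nidogen messages in sham glomeruli and 28.8% ± 13.6 in sham S1.

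After nephrectomy, Lamb2 made up 93.7% ± 3.68 of beta chain messages in glomeruli of nephrectomised rats and 95.0% ± 2.17 in sham glomeruli, and Lamb1 made up 82.9% ± 8.55 in S1 of nephrectomised rats and 80.6% ± 4.58 in sham S1. Lama1 made up 46.2% ± 10.2 of alpha chain messages in S1 of nephrectomised rats and 40.5% ± 7.12 in sham S1. These means over the 3 times differed by less than 1 SD of the nephrectomy group. At single times some differed by more. In S1 at 24 h, Lama1 made up 49.0% ± 10.7 of alpha chain messages after nephrectomy (n = 4) and 34.3% ± 6.99 after sham (n = 3), and Lama5 made up 38.7% ± 8.38 after nephrectomy and 51.3% ± 9.49 after sham. In whole kidney over the 3 times, Lama5 made up 48.7% ± 6.69 of alpha chains after nephrectomy and 44.3% ± 8.44 after sham, and Lamb2 made up 43.3% ± 4.35 of beta chains after nephrectomy and 43.3% ± 6.83 after sham (n = 12 each). No test was run on shares.

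**Figure D2:**
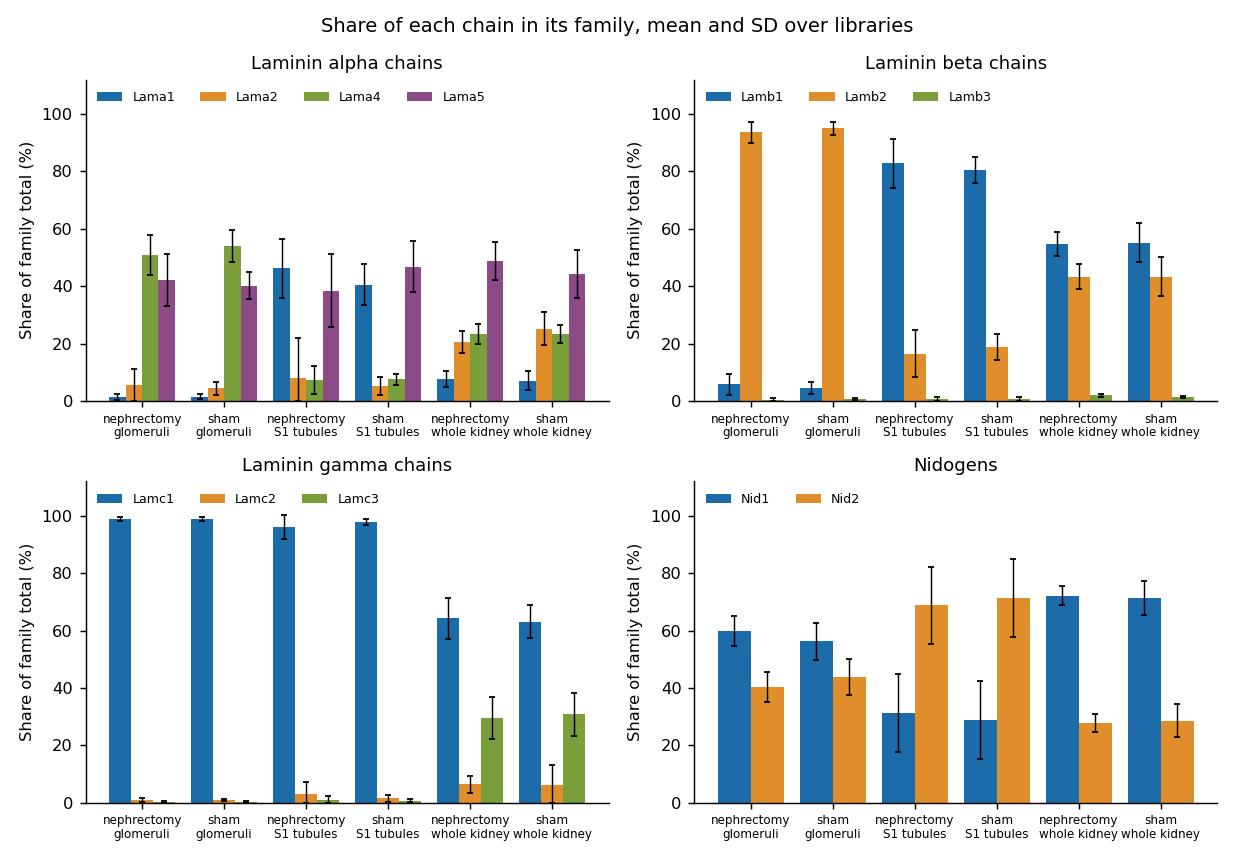
Share of each chain in its family (percent of the summed length-scaled levels; bars are means and lines SD over libraries) for laminin alpha, beta and gamma chains and nidogens, with nephrectomy left of sham in each tissue. Lamb2 is 93.7 and 95.0% of beta chains in glomeruli after nephrectomy and sham, and Lamb1 is 82.9 and 80.6% in S1.

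Promoters are shown for 2 genes with lower and 3 genes with higher levels in glomeruli than in S1, because the laminin chains differed in direction between the segments, and Nid1 had the largest difference of the 9. They are from RefSeq (GRCr8), cover 250 bases before to 50 bases after each gene's start and are written 5′ to 3′ on the gene's strand. The table held 7 of the 9 genes. Capitals mark the GC box letters GGGCGG or their reverse complement CCGCCC.
Lama1 (chr9:115139298-115139597, plus strand): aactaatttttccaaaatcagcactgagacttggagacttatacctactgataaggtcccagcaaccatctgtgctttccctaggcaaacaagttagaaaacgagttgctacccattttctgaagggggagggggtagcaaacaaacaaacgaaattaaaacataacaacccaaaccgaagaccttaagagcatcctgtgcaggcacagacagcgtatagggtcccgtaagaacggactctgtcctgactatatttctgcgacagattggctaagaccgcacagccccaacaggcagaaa
Lamb1 (chr6:53562846-53563145, plus strand): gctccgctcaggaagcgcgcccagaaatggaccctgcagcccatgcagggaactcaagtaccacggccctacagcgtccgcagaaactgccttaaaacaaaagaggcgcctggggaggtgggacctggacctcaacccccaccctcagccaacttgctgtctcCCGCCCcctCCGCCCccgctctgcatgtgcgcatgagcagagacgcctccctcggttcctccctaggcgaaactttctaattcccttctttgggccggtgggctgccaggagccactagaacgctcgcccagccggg
Lama5 (chr3:187695925-187696224, minus strand): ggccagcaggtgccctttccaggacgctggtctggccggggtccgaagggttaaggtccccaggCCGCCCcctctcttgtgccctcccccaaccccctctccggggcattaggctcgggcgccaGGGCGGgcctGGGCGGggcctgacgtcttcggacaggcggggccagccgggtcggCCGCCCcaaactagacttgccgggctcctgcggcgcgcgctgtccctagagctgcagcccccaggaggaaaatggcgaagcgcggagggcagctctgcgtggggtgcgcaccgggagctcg
Lamc1 (chr13:68051937-68052236, minus strand): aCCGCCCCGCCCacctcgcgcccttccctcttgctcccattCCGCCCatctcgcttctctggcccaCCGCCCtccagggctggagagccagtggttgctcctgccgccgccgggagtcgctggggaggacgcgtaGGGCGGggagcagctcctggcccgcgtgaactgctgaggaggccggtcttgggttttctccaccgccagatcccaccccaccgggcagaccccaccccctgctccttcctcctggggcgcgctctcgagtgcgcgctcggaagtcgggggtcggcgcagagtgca
Nid1 (chr17:93069036-93069335, plus strand): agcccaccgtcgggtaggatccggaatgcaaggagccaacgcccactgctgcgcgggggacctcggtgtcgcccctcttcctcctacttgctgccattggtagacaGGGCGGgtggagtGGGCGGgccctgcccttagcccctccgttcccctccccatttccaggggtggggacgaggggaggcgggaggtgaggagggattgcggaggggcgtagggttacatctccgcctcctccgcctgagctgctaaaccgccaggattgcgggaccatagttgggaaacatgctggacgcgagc

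Lama1 stood apart in base composition. Its promoter had 45.7% G and C and no GGGCGG on either strand, and 27.6% of all promoters in the table had a lower G and C content. Lamb1, the other gene with a lower level in glomeruli, had 63.7% G and C and 2 matches. Lama5, Lamc1 and Nid1 had 73.0, 71.7 and 66.3% G and C, with 4, 5 and 2 matches, of which the first pair in Lamc1 shares a base. Hspg2 had 6 matches and Agrn had 0. The median of all 33469 promoters was 51.7% G and C, and 33.1% of them held GGGCGG. On both strands, CCAAT was found once in Lama1 and once in Nid1 (37.5% of all promoters), and TATAAA (14.2%), TAATTA (5.4%) and GTTAAT (7.5%) were in none of the 7. A match describes these letters in this window only.

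Sham whole kidney gave another order of levels. Nid1 was highest at 47.0 ± 17.5 FPKM (SD, n = 12) and was above the next gene, Lamb1 at 26.0 ± 2.37 FPKM, in 11 of 12 libraries. Lamb2 followed at 20.9 ± 4.74, Nid2 at 17.7 ± 2.94 and Lamc1 at 17.4 ± 4.12 FPKM, and Nid2 was above Lamc1 in only 7 of 12 libraries. Hspg2 had 13.5 ± 4.02, Lama5 11.5 ± 3.36 and Agrn 9.78 ± 2.54 FPKM, and Lama1 was lowest at 1.73 ± 0.561 FPKM. By means, whole kidney thus ranked Hspg2 above Lama5 and Agrn, with Hspg2 above Lama5 in 9 of 12 libraries. Sham glomeruli ranked Hspg2 below both, at 5.45 ± 3.61 RPKM against 13.9 ± 4.1 RPKM for Lama5 and 27.5 ± 8.15 RPKM for Agrn (n = 11). Lama5 was above Hspg2 there in 11 of 11 libraries. Library protocol differs with tissue here, so the change of order cannot be assigned to either.

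In sham glomeruli the order was Lamc1 at 88.4 ± 26.7, Nid1 at 69.5 ± 26.1, Lamb2 at 61.1 ± 22.5 and Nid2 at 55.2 ± 22.9 RPKM. Lamc1 was above Nid1 in 11 of 11 libraries, but Nid1 was above Lamb2 in 8 and Lamb2 above Nid2 in 7. In sham S1, Lamb1 at 21.7 ± 4.44 RPKM was above Lamc1 at 15.5 ± 3.85 RPKM in 11 of 11 libraries, and Nid2 came next at 12.2 ± 4.49 RPKM. Lama5, Nid1, Lama1 and Lamb2 lay between 5.01 and 5.92 RPKM in sham S1, and neighbours in that order were above each other in 5 to 7 of 11 libraries, within their spread.

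**Figure D3:**
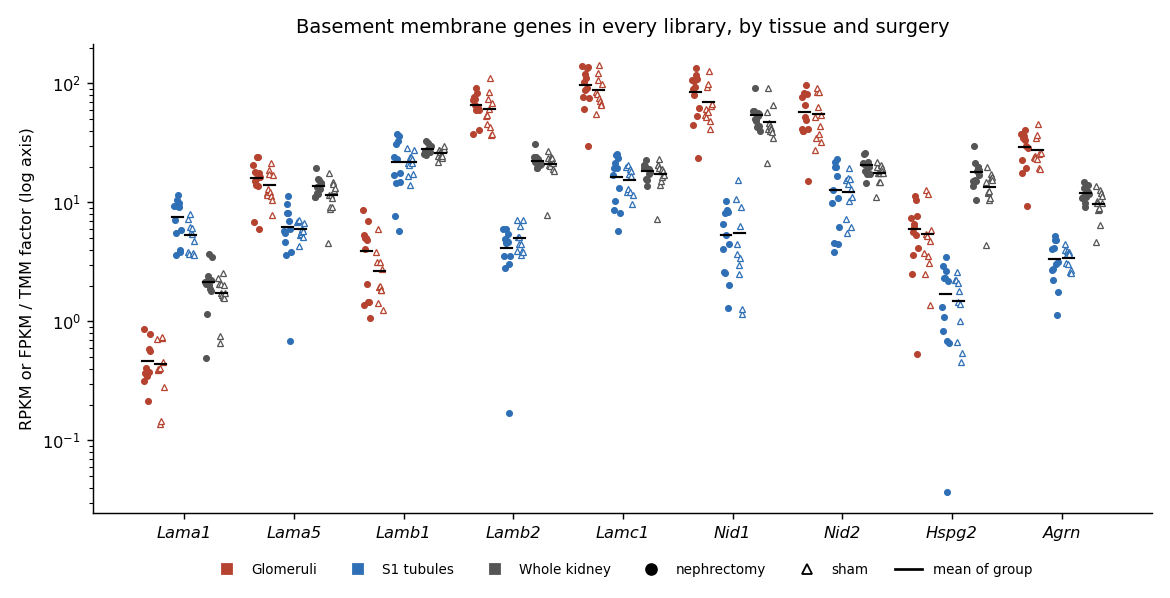
Level of each gene in every library (RPKM or FPKM divided by the TMM factor, log axis) in glomeruli, S1 and whole kidney, with nephrectomy (filled) left of sham (open) and a line at the mean of each group. Lamc1 has the highest mean in sham glomeruli (88.4), Lamb1 in sham S1 (21.7) and Nid1 in sham whole kidney (47.0), and Lama1 the lowest in sham glomeruli and whole kidney.

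The study's main question, how the left kidney responds to the loss of the right one, was asked of these genes in each tissue. In whole kidney 0 of the 9 passed at 24 h (0.236% of 15678 genes did), at 48 h (0.0% of genes), at 72 h (0.00638%) or over the 3 times together (2.86%), by edgeR's quasi-likelihood test with adjusted p under 0.05. DESeq2 also called 0 of the 9 in each. Without adjustment, p was under 0.05 for 2 of the 9 at 24 h (12.9% of all genes), for 0 at 48 h (10.3%) and 72 h (5.2%) and for 3 over the 3 times (17.5%). At 72 h the replicate numbers met the rule for pairing given below, though the labels name no pairs. A fit with the number as a block called 0 of all 15678 genes there. All 9 estimates over the 3 times were above 0, with a median log2 fold change of 0.205, beside -0.00692 for all genes, of which 48.6% were above 0. All 9 of the 95% intervals lay between a halving and a doubling. Without sham 24 h number 1, 8 of the 9 were above 0, Lamc1 stood at -0.03, Lamb2 at 0.0016 and Nid1 at 0.10.

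Hspg2 had the largest estimate over the 3 times. At 24 h it had 15.0, 13.7, 29.9 and 21.3 FPKM after nephrectomy, against 4.37, 14.9, 19.9 and 12.1 FPKM after sham. At 48 h it had 15.4, 10.5, 15.2 and 18.4 FPKM after nephrectomy, against 12.2, 12.4, 10.5 and 10.9 FPKM after sham, and at 72 h it had 19.8, 19.7, 18.6 and 17.1 FPKM after nephrectomy, against 17.3, 16.0, 16.3 and 15.3 FPKM after sham. The lowest 24 h value was sham number 1 and the highest was nephrectomy number 3, and groups overlapped at all 3 times. Over the 3 times the log2 fold change was 0.41 ± 0.17 (adjusted p = 0.1961), with 11 of 12 nephrectomy libraries above the mean of the sham libraries of their time. Leaving out 1 library at a time gave adjusted p between 0.0737 and 0.335, and 0.31 on the log2 scale without sham 24 h number 1. At 24 h alone the estimate was 0.64, and 0.35 without that library.

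For Agrn, all 12 nephrectomy libraries exceeded the mean of the sham libraries of the same time. At 24 h it had 10.8, 11.1, 14.8 and 13.1 FPKM after nephrectomy, against 4.69, 13.7, 10.3 and 9.86 FPKM after sham. At 48 h it had 9.11, 9.91, 11.2 and 12.5 FPKM after nephrectomy, against 8.7, 8.81, 9.04 and 6.4 FPKM after sham, and at 72 h it had 12.1, 14.1, 12.3 and 11.7 FPKM after nephrectomy, against 12.6, 12.0, 9.94 and 11.4 FPKM after sham. Groups were apart at 48 h, with the lowest nephrectomy library just above the highest sham library, and overlapped at 24 and 72 h. Over the 3 times the log2 fold change was 0.29 ± 0.12 (adjusted p = 0.1952), and adjusted p was between 0.0537 and 0.326 with 1 library left out at a time. The 12 of 12 rests on sham 24 h number 1, at 4.69 FPKM. Without it the nephrectomy libraries at 10.8 and 11.1 FPKM would lie below the 24 h sham mean. The 24 h estimate was 0.37, and 0.14 to 0.58 with 1 library left out at a time.

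Lama5 had 12.0, 11.8, 15.6 and 15.4 FPKM at 48 h after nephrectomy, against 9.21, 11.6, 10.8 and 9.23 FPKM after sham. Lamb1 had 26.6, 27.5, 31.3 and 28.9 FPKM at that time after nephrectomy, against 26.4, 25.1, 24.1 and 23.6 FPKM after sham. With Agrn, these were the 3 of the 9 genes whose groups did not overlap at 48 h, where 7.23% of all genes did not. None of the 9 was without overlap at 24 h (3.31% of genes) or 72 h (10.8%). Over the 3 times the log2 fold change was 0.28 ± 0.14 (adjusted p = 0.3274) for Lama5 and 0.11 ± 0.06 (adjusted p = 0.3696) for Lamb1.

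Nid2 had 21.6, 21.0, 25.4 and 26.0 FPKM at 24 h after nephrectomy, against 11.2, 19.9, 21.9 and 17.7 FPKM after sham. All 4 nephrectomy libraries were above the sham mean, and 2 of them lay below the highest sham library. The log2 fold change was 0.41 ± 0.16 at 24 h (adjusted p = 0.2734), or 0.24 without sham 24 h number 1 (adjusted p = 0.585), and 0.20 ± 0.09 over the 3 times (adjusted p = 0.2401). Lama1, Nid1, Lamb2 and Lamc1 had 0.29 ± 0.22, 0.19 ± 0.16, 0.09 ± 0.13 and 0.06 ± 0.13 over the 3 times, all with adjusted p of 0.5177 or above. Without the 24 h libraries numbered 3 and 4, 0 of the 9 passed either. That fit keeps only numbers 1 and 2 of each 24 h group. After nephrectomy these differed from numbers 3 and 4 in podocyte markers, as given below.

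The effect did not pass a test of difference between times for any of the 9 (0.0191% of all genes did) (adjusted p = 0.9988 for each). Marker lists in the same libraries gave values beside these. Of the 8 proximal tubule markers 2 were lower after nephrectomy over the 3 times, Slc13a1 (-1.57) and Slc22a8 (-0.996 on the log2 scale), and their summed level ranged from 486 to 991 FPKM after nephrectomy and from 654 to 1290 FPKM after sham. At 24 h the groups were apart, at 486 to 584 FPKM after nephrectomy and 654 to 1290 FPKM after sham. The summed level of 8 immune markers was apart at 24 h too, at 166 to 235 FPKM after nephrectomy and 256 to 411 FPKM after sham, and 0 of them passed over the 3 times. All 5 proliferation markers were higher. No podocyte, endothelial, mesangial or fibroblast marker passed. The summed level of the 8 podocyte markers was apart at 48 h, at 86.4 to 102 FPKM after nephrectomy and 104 to 113 FPKM after sham. At 24 h the nephrectomy group was not uniform in it. Numbers 1 and 2 each had 108 FPKM, and numbers 3 and 4 had 34.1 and 39.1 FPKM. The 24 h sham group did not divide by number in this way, with 50.5 FPKM in number 1 and 80.7 FPKM in number 4. The cause was not tested. Summed loop of Henle and distal markers overlapped, at 1290 to 1820 FPKM after nephrectomy and 1150 to 1660 FPKM after sham. So did summed collecting duct markers, at 85.2 to 164 FPKM after nephrectomy and 80.6 to 139 FPKM after sham. The part of these in the estimates of the 9 genes was not tested.

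**Figure D4:**
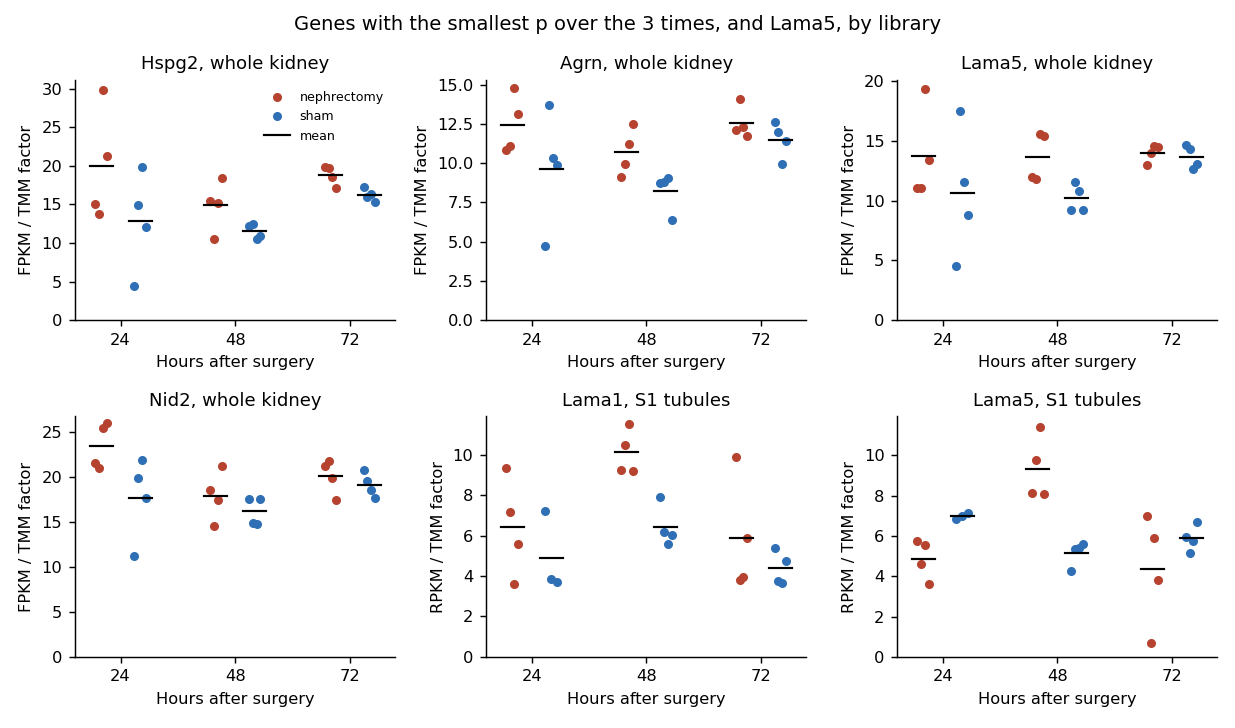
Level in each library (points, RPKM or FPKM divided by the TMM factor) by time, nephrectomy left of sham, with short lines at group means, for Hspg2, Agrn, Lama5 and Nid2 in whole kidney and Lama1 and Lama5 in S1. Sham 24 h number 1 is the lowest library in the 4 whole kidney panels, and S1 Lama5 lies below sham at 24 h and above sham at 48 h.

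In glomeruli 0 of the 9 passed at 24, 48 or 72 h or over the 3 times, as for all genes (0.0% of 22405 in each), and none passed between times (0.00446% of genes). DESeq2 called 0 of the 9 as well, and p without adjustment was under 0.05 for 0 of them at each time, beside 0.919, 1.36 and 2.9% of all genes at 24, 48 and 72 h and 2.11% over the 3 times. Estimates over the 3 times were above 0 for all 9, with a median of 0.139 beside -0.00334 for all genes, and 8 of the 9 intervals lay between a halving and a doubling. The 3 chains of the mature barrier laminin had log2 fold changes of 0.20 ± 0.19 for Lama5, 0.13 ± 0.16 for Lamb2 and 0.14 ± 0.20 for Lamc1. Agrn had 0.05 ± 0.17, Hspg2 0.17 ± 0.30, Nid1 0.28 ± 0.20 and Nid2 0.10 ± 0.21. Without nephrectomy 72 h number 3, whose depth was lowest, Agrn was 0.13, Hspg2 0.28, Nid2 0.19 and Lamc1 0.23 over the 3 times, Lama1 was -0.01, and 0 of the 9 passed.

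Lamb2 in glomeruli had 72.6, 37.6, 77.6 and 65.7 RPKM at 24 h after nephrectomy, against 53.5, 45.9 and 54.6 RPKM after sham. At 48 h it had 73.6, 59.6, 91.1 and 82.4 RPKM after nephrectomy, against 74.5, 84.1, 61.4 and 111 RPKM after sham, and at 72 h it had 62.3, 62.4, 40.8 and 60.1 RPKM after nephrectomy, against 42.7, 37.1, 37.8 and 69.1 RPKM after sham. The groups overlapped at each time, with the highest library of all in the sham group at 48 h.

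Lamb1, the minor beta chain there, had the widest interval over the 3 times. It had 8.55, 5.29, 1.37 and 5.03 RPKM at 24 h after nephrectomy, against 3.84, 3.14 and 1.42 RPKM after sham. At 48 h it had 4.06, 5.04, 4.87 and 2.06 RPKM after nephrectomy, against 5.94, 1.95, 1.98 and 3.14 RPKM after sham, and at 72 h it had 1.45, 7.02, 1.46 and 1.07 RPKM after nephrectomy, against 1.85, 1.84, 2.74 and 1.24 RPKM after sham. Single libraries were high in both groups, and the groups overlapped at each time. Its log2 fold change was 0.51 ± 0.31 over the 3 times (95% interval -0.12 to 1.14) and 0.48 at 72 h, where it was -0.52 without nephrectomy number 2. Without that library it was 0.18 over the 3 times. None of the 9 genes was without overlap in glomeruli at 24 h (2.8% of genes), 48 h (2.05%) or 72 h (1.12%). These shares of all genes were scaled with glomerular libraries alone, and the levels of the 9 with all segment libraries.

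In S1, 0 of the 9 passed at 24, 48 or 72 h or over the 3 times (0.0% of 18372 genes in each) or between times (0.0109%). DESeq2 called 0 of the 9 too. Over the 3 times Lama1 was the single gene of the 9 with p under 0.05 before adjustment (2.54% of all genes), and its adjusted p was 1.0. At single times 0 of the 9 were under 0.05, beside 0.729, 1.96 and 13.2% of all genes at 24, 48 and 72 h. Lama1 had 9.33, 7.16, 3.58 and 5.58 RPKM at 24 h after nephrectomy, against 7.2, 3.86 and 3.68 RPKM after sham. At 48 h it had 9.25, 10.5, 11.5 and 9.2 RPKM after nephrectomy, against 7.93, 6.2, 5.59 and 6.05 RPKM after sham, and at 72 h it had 9.91, 3.8, 3.97 and 5.86 RPKM after nephrectomy, against 5.38, 3.74, 3.64 and 4.75 RPKM after sham. Groups were apart at 48 h and overlapped at 24 and 72 h. The log2 fold change was 0.48 ± 0.15 over the 3 times (95% interval 0.17 to 0.79, 9 of 12 libraries above the sham mean of their time), with 0.49, 0.45 and 0.50 at 24, 48 and 72 h. At 72 h only 2 of 4 nephrectomy libraries were above the sham mean, and the estimate was 0.21 without number 1.

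Lama5 in S1 had opposite signs by time. At 24 h it had 5.75, 4.62, 5.54 and 3.59 RPKM after nephrectomy, against 6.86, 6.99 and 7.14 RPKM after sham. At 48 h it had 8.11, 9.76, 11.4 and 8.07 RPKM after nephrectomy, against 4.26, 5.34, 5.39 and 5.62 RPKM after sham, and at 72 h it had 7.0, 0.681, 5.92 and 3.8 RPKM after nephrectomy, against 5.97, 5.14, 5.77 and 6.68 RPKM after sham. Every nephrectomy library was below sham at 24 h and above sham at 48 h, and the groups overlapped at 72 h, where number 2 was far below the others. The log2 fold changes were -0.45 ± 0.35 at 24 h, 0.65 ± 0.33 at 48 h and -0.45 ± 0.33 at 72 h, the last -0.14 without nephrectomy 72 h number 2. The test of a difference between the 3 times gave an adjusted p of 0.6951, with 1 of the 9 genes under 0.05 before adjustment, beside 7.15% of all genes.

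At 48 h in S1 the groups of Lama1, Lama5, Nid2 and Agrn did not overlap, 4 of the 9 (5.73% of all genes). At 24 h only Lama5 was apart (3.39% of genes), and at 72 h none (1.16%). The levels of the 9 were scaled with all segment libraries, and the shares of all genes with S1 libraries alone. The counts and shares are therefore not on the same scale. With S1 scaled alone, edgeR gave log2 fold changes at 48 h of 0.33 for Nid2 and 0.19 for Agrn. Their separation, which is narrow, may depend on the scaling. Nid2 had 19.8, 21.8, 19.9 and 23.3 RPKM at 48 h after nephrectomy, against 15.9, 14.2, 10.2 and 19.3 RPKM after sham. Agrn had 4.1, 5.26, 4.8 and 4.79 RPKM at that time after nephrectomy, against 3.88, 3.68, 3.05 and 3.83 RPKM after sham. The summed level of the 8 proximal tubule markers at 48 h ranged from 5230 to 6050 RPKM after nephrectomy and from 3280 to 5310 RPKM after sham, and its part in these values was not tested. The other genes had log2 fold changes over the 3 times from -0.39 ± 0.26 (Lamb2) to 0.12 ± 0.34 (Hspg2), and all 9 intervals lay between a halving and a doubling. At single times only 3, 3 and 4 of the 9 intervals did so in S1 at 24, 48 and 72 h, so single times leave room for changes over 2-fold. Leaving out nephrectomy 72 h number 2 took Lamb2 at 72 h to -0.43, where it was -0.78 with it, and Nid1 to -0.71, where it was 0.24 with it.

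The effect of nephrectomy did not pass a test of difference between glomeruli and S1 for any of the 9 or for any other gene (0.0% of 24488). At p under 0.05 before adjustment there were 622 genes and 0 of the 9, and DESeq2 called 0 genes. Differences of the log2 fold changes ran from -0.40 ± 0.32 for Lama1 to 0.61 ± 0.41 for Lamb1.

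**Figure D5:**
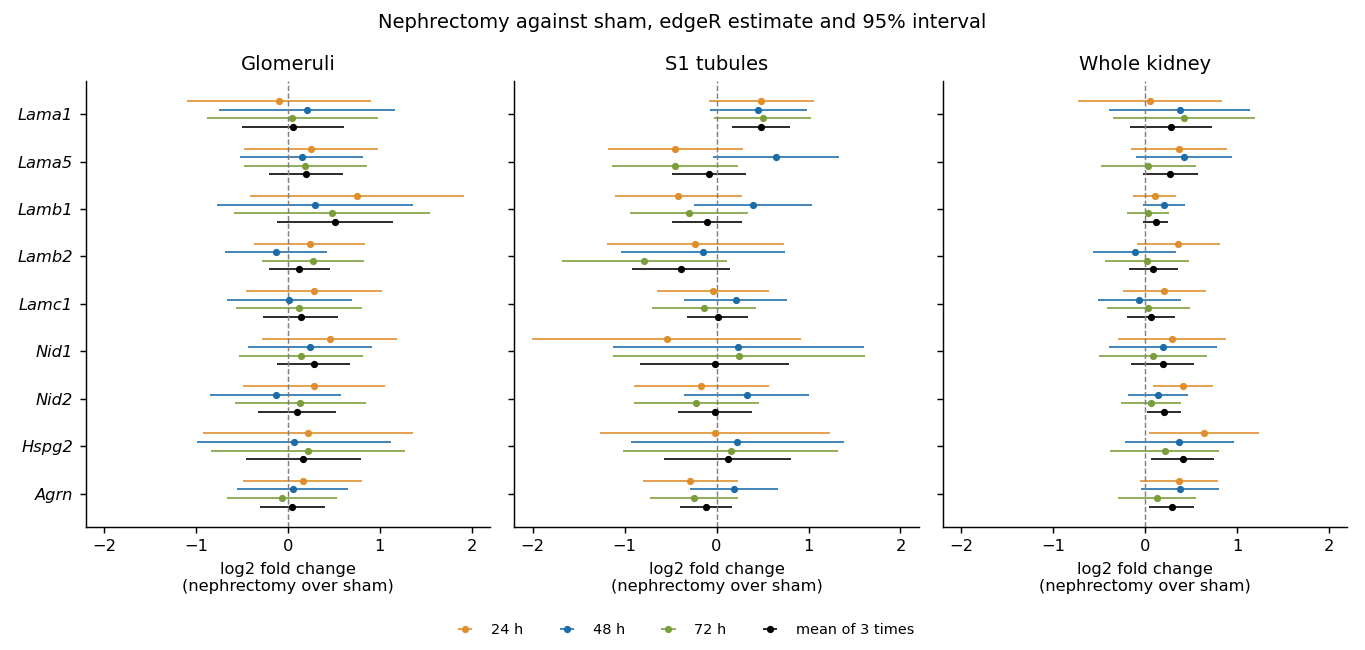
Log2 fold change of nephrectomy over sham for each of the 9 genes (points) with its 95% interval (lines), by tissue and time and over the 3 times. Intervals over the 3 times lie within a halving and a doubling in whole kidney and S1 and, but for Lamb1, in glomeruli, and no gene passed the adjusted threshold.

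Among 46 other basement membrane genes, the partners of these proteins, 4 passed in whole kidney over the 3 times, beside 2.86% of all genes. Col4a1, a chain of the type IV collagen network, rose to 95.6 ± 21.3 FPKM after nephrectomy, against 67.4 ± 15.9 FPKM after sham (SD, n = 12 each; log2 fold change 0.52 ± 0.13, adjusted p = 0.0315). Col18a1, a basement membrane collagen with heparan sulfate chains, rose to 39.8 ± 8.81 FPKM after nephrectomy, against 27.9 ± 7.04 FPKM after sham (0.52 ± 0.14, adjusted p = 0.0410). Loxl2, which crosslinks collagen, rose to 14.1 ± 1.75 FPKM after nephrectomy, against 10.6 ± 2.26 FPKM after sham (0.41 ± 0.10, adjusted p = 0.0331). All 12 nephrectomy libraries were above the sham mean of their time for these 3 genes. Ntn4, a netrin that binds the laminin gamma chain, fell to 10.2 ± 1.1 FPKM after nephrectomy, against 12.3 ± 1.41 FPKM after sham (-0.28 ± 0.07, adjusted p = 0.0427), with 1 of 12 above.

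These 4 calls were not stable. With 1 library left out at a time the call held in 13 of 24 fits for Col4a1, 12 for Loxl2, 9 for Col18a1 and 7 for Ntn4. Without the 24 h libraries numbered 3 and 4 the adjusted p was 0.12 for Col4a1, 0.0973 for Loxl2 and 0.11 for Col18a1. At 24 h 1 of the 46 passed, Tinagl1, a matrix protein related to tubulointerstitial nephritis antigen (0.79 ± 0.17, adjusted p = 0.0486). Its call held in 4 of 24 fits with 1 library left out, with adjusted p up to 0.148. At 48 and 72 h 0 passed by edgeR, with p under 0.05 before adjustment for 7 and 2 of the 46, beside 10.3 and 5.2% of all genes. DESeq2 called 2 of the 46 at 24 h, Tinagl1 and Tinag (300 of all genes). At 48 h it called 1, Lamb3, a beta chain of epithelial laminin (edgeR 0.97 ± 0.26, adjusted p = 0.168), and at 72 h 0. Over the 3 times it called 9 (847 of all genes). These were the 4 that edgeR called over the 3 times, with Col4a2, Col15a1, Lamb3, Smoc2 and Tinag.

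In glomeruli 0 of 45 other basement membrane genes passed in any nephrectomy comparison by edgeR or DESeq2, and 0 had p under 0.05 before adjustment. The gelatinase Mmp9 had -0.94 ± 0.50 there at 24 h. In S1 0 of 45 passed by edgeR, with 2, 0 and 9 under 0.05 before adjustment at 24, 48 and 72 h, beside 0.729, 1.96 and 13.2% of all genes, and 3 over the 3 times, beside 2.54%. DESeq2 called Col18a1 in S1 at 24 h (edgeR 1.25 ± 0.32, adjusted p = 1.0) and 4 genes at 72 h, Col4a6, Frem1, Hpse and Lama2, and 706 of all genes at that time. Lama2 had 0.322, 8.44, 0.244 and 0.604 RPKM in S1 at 72 h after nephrectomy, against 0.711, 0.242, 0.371 and 0.345 RPKM after sham. The high library was nephrectomy 72 h number 2, which was the highest for all 4 genes. By edgeR Lama2 had 3.15 ± 0.90 (adjusted p = 0.279), and -0.07 without that library, where Col4a6 was 1.32, Frem1 0.50 and Hpse 0.80, with 3.19, 1.64 and 2.87 when it was kept.

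Between sham glomeruli and sham S1, 32 of 45 other basement membrane genes were higher in glomeruli and 8 were lower, beside 28.1 and 22.2% of all genes. The lower ones included Tinag, a tubular basement membrane antigen (log2 fold change -7.70), and the laminin receptor chain Itga6 (-2.80). Higher ones included the podocyte laminin receptor chain Itga3 (4.63 ± 0.21), the mesangial Itga8 (6.50 ± 0.29), the sulfatase Sulf1 (7.52 ± 0.34), the gelatinase Mmp9 (8.81 ± 0.39) and Lama4 (4.27). Of 5 other laminin chains 3 were higher in glomeruli and 0 lower, and of 6 basement membrane collagens 5 were higher and 1 lower. Lama3 and Col4a3 were listed but not found by symbol, so they are in none of these counts.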

How the data were processed

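RNA-seq libraries of glomeruli, S1 tubules and whole kidney were analysed from the gene counts that the authors deposited. The submitters' processing notes name Trimmomatic 0.32, STAR 2.4.0.1, HTSeq and SAMtools. Not given in the sources used here were the versions of the last 2 tools, the genome build, the annotation and the use of strand. Deposited RPKM (segments) and FPKM (whole kidney) are the authors' own, per the file headers. Levels are these values divided by TMM factors.

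Each tissue was fitted apart with edgeR 4.0.16 (R 4.3.3, limma 3.58.1), as operation by time, after removing genes with low counts (filterByExpr, minimum count 10). Quasi-likelihood tests were adjusted over all genes by Benjamini-Hochberg at 0.05. Sham segments were fitted together for glomeruli against S1, and all segment libraries for the difference of the effects. DESeq2 1.42.0, RLE size factors, no filter, a replicate block, the left-out pair kept, whole kidney without the 24 h libraries numbered 3 and 4, and 1 library left out at a time were tried. The fits were tested on simulated data. Nothing in the labels says what the replicate numbers stand for. Whether they pair the libraries was checked by the correlation of same-numbered libraries' deviations from their group means, which was over 0.1 in 6 of 12 pairs of nephrectomy and sham in whole kidney (-0.0776 to 0.295; at 72 h all 4, from 0.12 to 0.295), in 2 of 11 in glomeruli, in 5 of 11 in S1 and in 12 of 23 between glomeruli and S1 (-0.581 to 0.496). Between sham glomeruli and sham S1 it was over 0.1 in 8 of 11 pairs (-0.0825 to 0.496), with all 3 at 24 h (0.129 to 0.351). By the rule that every pair must be over 0.1, whole kidney libraries at 72 h and the sham segments at 24 h were taken as paired. The test of sham segments covers all 3 times, where the rule was not met, and its fit with the block is given below.

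The 9 genes and all lists were chosen with earlier results of these data known. All 9 are named throughout. Of the other basement membrane genes the rule names up to 4 with the smallest p among those called in a comparison, or the 2 with the smallest p where none was. For likeness it names up to 3 genes of at least 5 CPM with the highest Pearson r per tissue. Tinag, Itga6, Lama4, Lamc3, the genes called by DESeq2 alone and the single proximal tubule markers were named after their values were seen. Promoter letters are RefSeq's, on GRCr8. Reads of overlapping genes may be counted for either or none, so such values are uncertain.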

Additional observations from a re-analysis of the deposited data

Results flagged for a closer look

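Of 144 groups of 4 libraries of the 9 genes, 9 had a library far from the others, where chance gives about 1 in 20. In glomeruli, Lama1 was 0.868 RPKM in nephrectomy 24 h number 2 (others 0.316 to 0.404) and 0.214 RPKM in nephrectomy 48 h number 4 (others 0.345 to 0.366). Lamb1 was 7.02 RPKM in nephrectomy 72 h number 2 (others 1.07 to 1.46), and Lamb2 was 40.8 RPKM in nephrectomy 72 h number 3 (others 60.1 to 62.4). Nid2 was 77.2 RPKM in nephrectomy 24 h number 1 (others 39.8 to 41.5). In S1, Nid1 was 15.4 RPKM in sham 48 h number 1 (others 2.49 to 3.44), and Agrn was 3.67 RPKM in sham 72 h number 1 (others 2.54 to 2.7). In whole kidney, Lamc1 was 7.27 FPKM in sham 24 h number 1 (others 20.6 to 23.2), and Agrn was 6.4 FPKM in sham 48 h number 4 (others 8.7 to 9.04).

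Lama5 went in opposite directions in 2 pairs of comparisons, in every nephrectomy library set against its sham mean. At 24 h the log2 ratio of mean levels was 0.373 in whole kidney and -0.522 in S1, a difference that was not tested. By edgeR the whole kidney log2 fold change was 0.37, 0.12 without sham 24 h number 1 and 0.0064 without the 24 h libraries numbered 3 and 4. In S1 the log2 ratio of mean levels was -0.522 at 24 h and 0.859 at 48 h, where edgeR gave log2 fold changes of -0.45 and 0.65. The difference between the 3 times had an adjusted p of 0.6951 by edgeR's quasi-likelihood test with Benjamini-Hochberg adjustment.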

How the results depend on the processing

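The count of the 9 genes called was the same under every setting run, 9 between sham glomeruli and sham S1 and 0 in each nephrectomy comparison. Between the sham segments, keeping the sham 24 h pair numbered 2 gave -2.82 for Lama1, -2.35 for Lamb1, 3.17 for Lamb2 and 2.90 for Nid1. With that pair kept, signs turned in glomeruli for Lamb1 at 24 h (-0.97), Lamc1 at 48 h (-0.010) and over the 3 times for Lamb1 (-0.10) and Lama1 (-0.62), in S1 over the 3 times for Lamc1 (-0.31) and Lamb1 (0.015), and for the difference of the effects on Lamb1 (-0.099). Without the whole kidney 24 h libraries numbered 3 and 4, Lama1 at 24 h was -0.066. In S1, DESeq2 and RLE factors turned Lamc1 at 24 h (0.025 and 0.025), Hspg2 at 24 h (0.013 and 0.012), Nid2 over the 3 times (0.011 and 0.011) and Nid1 over the 3 times (0.14 and 0.13), and the difference of the effects on Hspg2 (-0.019 and -0.025). The cause was not tested. With the replicate block 0 of the 9 were called after nephrectomy and 9 between segments, and it turned glomerular Nid2 (-0.052) and Lamc1 (-0.038) at 72 h and Lama1 over the 3 times (-0.0081), and S1 Hspg2 at 72 h (-0.26) and, over the 3 times, Nid1 (0.039), Lamc1 (-0.065) and Hspg2 (-0.14). With the block Col4a1 (0.51) and Ntn4 (-0.27) were no longer called. Counts over all genes moved more. In whole kidney at 24 h there were 37, with 300 by DESeq2, 56 with no filter, 124 with the block and 2645 without the 24 h libraries numbered 3 and 4. At 48 h there were 0, with 166 by DESeq2, 1 with no filter and 4 without those libraries, and at 72 h 1, with 7 by DESeq2, 0 with the block and 2 without them. Over the 3 times there were 448 (265 higher and 183 lower), with 847 by DESeq2 (432 higher and 415 lower) and 785 (326 higher and 459 lower) without those libraries, and between times 3, with 51 by DESeq2, 5 with no filter and 1830 without them. With 1 library left out, 24 h gave 1 to 364, 48 h 0 to 151 and the 3 times 242 to 1067. DESeq2 called 706 genes in S1 at 72 h, where edgeR called 0, and at most 10 in every other segment comparison after nephrectomy. Depth was lowest in glomeruli, down to 2643258 gene counts, and libraries spread more in the segments, with edgeR's biological coefficient of variation at 0.625 for glomeruli and 0.713 for S1, beside 0.248 for whole kidney.

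With 1 library left out at a time, the sign of 39 log2 fold changes turned in at least 1 fit. The largest of these in the main fits was 0.48, for Lamb1 in glomeruli at 72 h. They are given by their lowest and highest values. In whole kidney at 24 h the ranges were Lamc1 -0.053 to 0.36, Lama1 -0.19 to 0.38. In whole kidney at 48 h the range was Lamc1 -0.17 to 0.018. In whole kidney at 72 h the ranges were Nid1 -0.019 to 0.32, Lamc1 -0.0058 to 0.062, Lamb1 -0.034 to 0.070, Lamb2 -0.031 to 0.087, Lama5 -0.0011 to 0.069. In whole kidney over the 3 times the range was Lamc1 -0.027 to 0.11. In glomeruli at 24 h the ranges were Lama1 -0.55 to 0.13, Hspg2 -0.047 to 0.60. In glomeruli at 48 h the ranges were Nid2 -0.28 to 0.0049, Lamc1 -0.11 to 0.14, Agrn -0.080 to 0.19, Hspg2 -0.17 to 0.32, Lamb2 -0.22 to 0.043. In glomeruli at 72 h the ranges were Nid2 -0.23 to 0.41, Nid1 -0.23 to 0.40, Lamc1 -0.18 to 0.39, Lamb1 -0.52 to 0.81, Lama1 -0.14 to 0.27, Agrn -0.22 to 0.17, Hspg2 -0.13 to 0.57. In glomeruli over the 3 times the ranges were Nid2 -0.027 to 0.20, Lama1 -0.099 to 0.16, Agrn -0.0035 to 0.13. In S1 at 24 h the ranges were Nid2 -0.49 to 0.24, Lamc1 -0.23 to 0.12, Hspg2 -0.49 to 0.20. In S1 at 48 h the range was Lamb2 -0.22 to 0.098. In S1 at 72 h the ranges were Nid1 -0.71 to 0.77, Hspg2 -0.88 to 0.51. In S1 over the 3 times the ranges were Nid2 -0.13 to 0.12, Nid1 -0.34 to 0.30, Lamc1 -0.086 to 0.066, Hspg2 -0.22 to 0.24, Lama5 -0.17 to 0.021. For the effect in glomeruli against S1 they were Nid2 -0.035 to 0.43, Hspg2 -0.047 to 0.39.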

Other observations

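Across libraries of a tissue the members moved together to different degrees, described by Pearson r of log2 CPM with no test, since the libraries share depth, scaling and dissection. Across 23 glomerular libraries Lamc1 and Nid2 had r = 0.911, and Lama1 and Lamb2 had r = -0.764. Across 23 S1 libraries Lamc1 and Nid2 had r = 0.864. Across 24 whole kidney libraries Lama5 and Agrn had r = 0.902 and Nid2 and Hspg2 0.893, while Lama1 and Nid2 had -0.432.

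Outside the 9 genes, the gene most like Hspg2 was Notch2 in whole kidney (r = 0.944, n = 24), Pdgfb in glomeruli (0.944, n = 23) and Myo1c in S1 (0.867, n = 23). The gene most like Lama1 was Tmem125 in whole kidney (0.895), Cemip in glomeruli (0.888) and Epha4 in S1 (0.849). For Nid1 they were Palld in whole kidney (0.862), Rcor1 in glomeruli (0.931) and Bgn, which encodes the small proteoglycan biglycan, in S1 (0.898). For Agrn they were Kdm5c in whole kidney (0.924), Nedd4l in glomeruli (0.965) and Epas1 in S1 (0.849). No gene was the nearest of these 4 members in more than 1 tissue. Other members can differ. For Lama5, Pkd1 was the nearest in glomeruli (r = 0.922, n = 23) and among the 3 nearest in whole kidney (0.934, n = 24).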
